A study of Mus musculus with 20 samples.

Results

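Ribosome biogenesis factors are the proteins that make, modify, cut and fold ribosomal RNA and load it with ribosomal proteins, without staying in the finished ribosome. A fixed list of 47 such genes was looked up by gene name in a count table of 29986 genes, and all 47 were found and passed the filter on low counts. By function, 6 serve transcription by RNA polymerase I, 9 are proteins of small nucleolar ribonucleoproteins (snoRNPs) or act on them, 13 assemble the small subunit, 15 assemble the large subunit and 4 are nucleolar proteins with several tasks. The samples were tenocytes, the fibroblast-like cells of tendon, grown from the tail tendon of wild type C57Bl/6 mice that were adult. They received recombinant insulin-like growth factor 1 (IGF1) at 100 ng/mL for 1, 2, 6 or 24 h, or none (0 h), with 4 RNA-seq libraries per time and 20 in all. All libraries come from the same strain and tissue, and nothing in the labels tells whether replicates came from separate mice or cultures, so p-values measure the spread between these samples, which may be technical. Untreated cultures held for 1 to 24 h were not analysed here, so treatment and time in culture cannot be told apart.

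Ribosomes are built in the nucleolus. RNA polymerase I transcribes a long precursor RNA, guide RNAs in snoRNPs direct methylation and pseudouridylation of it, and large sets of helicases, methyltransferases, GTPases and nucleases then release the small and large subunits along separate routes. Growth factors that act through PI3 kinase, mTOR and ERK are known to raise ribosome production in many cells, and the transcription factor MYC, which binds the E-box, is known to activate many genes of this kind.

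RefSeq promoters (GRCm38.p6) were matched for 41 of the 47 members, and Tcof1, Fbl, Rrp12, Bop1, Rrs1 and Npm1 were not matched. The 250 bases before the start are shown for 3 genes with different courses, on the plus strand from 5′ to 3′. Nop56 (chr2:130274162-130274411) had the largest log2 fold change of all members at 2 h, Rrn3 (chr16:13780449-13780698) holds 2 E-boxes, and Nop10 (chr2:112261676-112261925) was called at no time. Capitals mark the E-box CACGTG.
Nop56: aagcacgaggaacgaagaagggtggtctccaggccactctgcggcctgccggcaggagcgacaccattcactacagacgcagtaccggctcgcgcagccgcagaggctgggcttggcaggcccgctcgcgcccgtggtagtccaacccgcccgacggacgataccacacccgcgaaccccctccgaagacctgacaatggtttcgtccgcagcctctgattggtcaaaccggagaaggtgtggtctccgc
Rrn3: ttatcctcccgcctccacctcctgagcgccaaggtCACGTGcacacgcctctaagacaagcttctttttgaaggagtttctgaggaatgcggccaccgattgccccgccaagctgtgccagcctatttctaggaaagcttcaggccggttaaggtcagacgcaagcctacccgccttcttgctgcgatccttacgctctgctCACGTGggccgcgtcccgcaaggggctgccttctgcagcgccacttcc
Nop10: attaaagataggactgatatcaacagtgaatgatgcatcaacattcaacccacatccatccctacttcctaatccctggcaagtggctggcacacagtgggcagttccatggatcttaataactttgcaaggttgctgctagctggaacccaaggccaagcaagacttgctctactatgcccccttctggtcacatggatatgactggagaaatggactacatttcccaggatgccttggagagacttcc

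The motif CACGTG is its own reverse complement, so a match holds on both strands, and it overlaps no other motif searched because none was. Rrn3, Nop2 and Imp4 held it in these 250 bases, which is 7.32% of the 41 matched members, against 9.88% of the 9866 tested genes with a promoter in the table. When the 50 bases after the start were added, a window chosen after the first result was seen, 10 of 41 members (24.4%) and 11.7% of the tested genes held it. Windows of 30 bases round the match are printed for Nop2 and Imp4, and for 4 members whose match lay after the start (the matches of Rrn3 stand in its promoter above), each on its gene's strand, with the E-box in capitals. They are shown because these genes are described below and differ in course: Wdr43 and Tsr1 were higher from 1 h, Utp20 not before 6 h.
Nop2, chr6:125131811-125131840, plus strand: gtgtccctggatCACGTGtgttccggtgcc
Imp4, chr1:34439696-34439725, plus strand: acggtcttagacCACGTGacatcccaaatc
Wdr43, chr17:71616220-71616249, plus strand: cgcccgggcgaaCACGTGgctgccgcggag
Tsr1, chr11:74898092-74898121, plus strand: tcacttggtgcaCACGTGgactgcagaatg
Mybbp1a, chr11:72441347-72441376, plus strand: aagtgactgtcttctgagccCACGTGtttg
Utp20, chr10:88826765-88826794, minus strand: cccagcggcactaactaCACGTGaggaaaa

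Medians over members with and without the E-box are given as a description. In the longer window 10 members held the motif and 31 did not. Their median log2 fold changes were, in this order, 0.16 and 0.23 at 1 h. At 2 h they were 0.37 and 0.55, and at 6 h 0.61 and 0.72. In the window searched first, which ends at the start, 3 members held it and 38 did not. There the medians were 0.29 and 0.21 at 1 h, 0.40 and 0.53 at 2 h and 0.53 and 0.70 at 6 h. No test was made.

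Library totals ran from 13734425 to 22687173 counts, and levels are given as counts scaled to the same library total (CPM). Ranges of single genes over libraries are compared in this CPM unless TMM scaling is named. Fold changes come from 1 fit of all libraries scaled by TMM (trimmed mean of M values), with factors between 0.96 and 1.05. A gene was called at an adjusted p below 0.05 over 14420 genes tested. The 9 tendon markers had a mean log2 CPM between 10.61 and 11.11 in every library, and 4 of them were lower at each of 2, 6 and 24 h. Macrophage markers, 13 genes, had a mean log2 CPM of 4.23 and 5.06 in 2 h replicates 1 and 2 and between 2.52 and 4.09 elsewhere, and 12 of the 13 were higher at 2 h. Schwann cell, endothelial and pericyte markers were also highest in 2 h replicate 2, at 2.94, 2.03 and 3.17, against at most 1.18, 1.34 and 2.15 in the 18 libraries other than 2 h replicates 1 and 2. Of the 5 skeletal muscle markers tested, 3 were higher at 24 h, while Ckm was at 0 in 18 libraries and Myod1 in 17. In 2 h replicate 4 the members departed from their 2 h mean by gene length: the 10 shortest, of at most 2483 exonic bases, were all above it (median log2 difference 0.27), and of the 10 longest, of at least 6101, 6 were below it (median -0.06). Among these Utp20 lay lowest (-0.47), while Wdr12 lay above the mean (0.15). Over the 47 members Spearman's rho of departure against exonic length was -0.60 in that library, 0.65, 0.31 and 0.29 in 2 h replicates 1 to 3, and between -0.33 and 0.50 at other times. The 4 departures at a time sum to about 0, so these values are not independent. Cytosolic ribosomal protein genes, mostly short, had a mean log2 CPM of 8.10 in 2 h replicate 4 with 7.54 to 7.66 for the remaining libraries of that time. The part of these library differences in the results was not tested. Leaving out any 1 library ended none of the 41 calls of members at 2 h against 0 h, and added those of Bop1, Ltv1 or Polr1c. Without 2 h replicates 1 and 2 together the calls of Imp3, Polr1a and Noc3l (0.23, adjusted p = 0.0985) were lost.

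**Figure D1:**
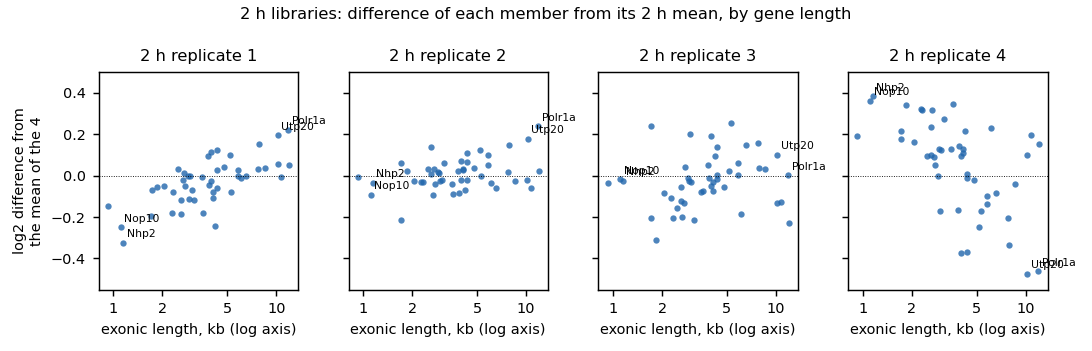
Each dot is 1 of 47 members. The x axis is exonic length in kb (log axis) and the y axis the log2 difference of TMM-scaled CPM in a 2 h library from the mean of the 4 libraries at 2 h. In replicate 4 short genes such as Nop10 and Nhp2 lie above 0 and the long genes Utp20 and Polr1a lie lowest.

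Transcripts of the ribosome biogenesis factors rose together within hours of IGF1 and were back near their starting level at 24 h. Together they took 0.348% ± 0.00655 (SD, n = 4) of all counts at 0 h and 0.399% ± 0.0115 after 1 h. The share was 0.494% ± 0.0224 at 2 h and 0.559% ± 0.0149 at 6 h, and 24 h gave 0.349% ± 0.00547. No library at 1, 2 or 6 h overlapped the range at 0 h, 0.339% to 0.353%, whereas the 24 h range, 0.343% to 0.353%, lay over it. With the TMM scaling used for the tests the share was 0.358% ± 0.00597 (SD, n = 4) at 0 h and 0.333% ± 0.00554 at 24 h, and the mean log2 CPM of the members, 5.55 to 5.58 at 24 h, lay below the 5.59 to 5.64 of 0 h in every library. In bulk RNA, fewer cells of a type and less RNA per cell cannot be told apart. At 1 h 19 of 47 members (40.4%) were higher and 1 lower, against 6.75% and 3.88% of all genes tested. Of these 20 calls 15 were kept whichever 1 library was left out, and those of Rrp9, Bysl, Mrto4, Heatr1 and Rrp1b were lost without some. At 2 h 40 (85.1%) were higher and 1 lower, against 20.2% and 17.5%. At 6 h 43 (91.5%) were higher and 2 lower, against 20.6% and 19.6%. At 24 h 1 (2.13%) was higher, against 12.7%, and 8 (17.0%) were lower, a share near the 13.2% of all genes. The median log2 fold change over the 47 was 0.21, 0.53, 0.68 and -0.08 at these times, and over all genes tested it lay within 0.01 of 0. Because all comparisons share the 0 h libraries, they are not independent of each other.

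**Figure D2:**
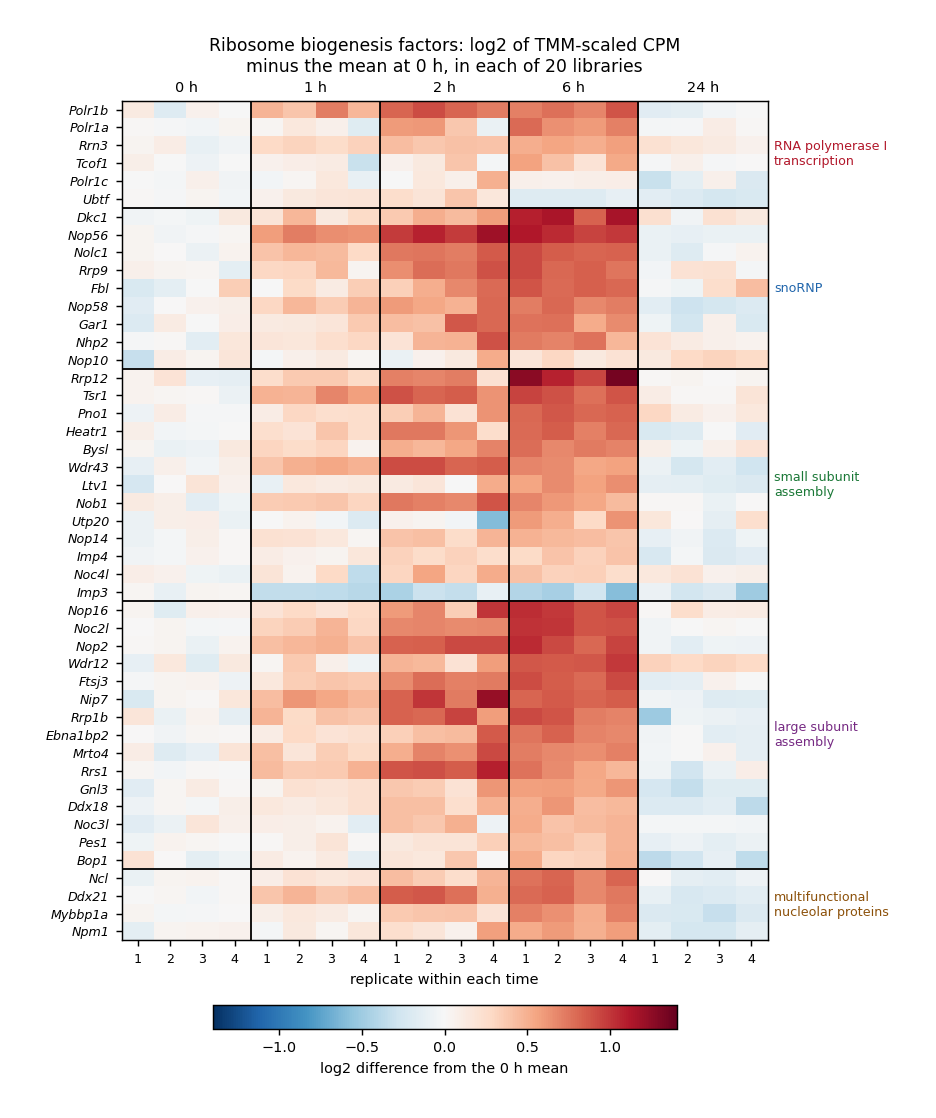
Rows are the 47 members, ordered by class and within a class by their level at 6 h, and columns are the 20 libraries. Colour is log2 of TMM-scaled CPM minus the 0 h mean. Most rows turn red at 1 or 2 h, are darkest at 2 or 6 h and pale at 24 h, while Imp3 is blue at every treated time.

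**Figure D3:**
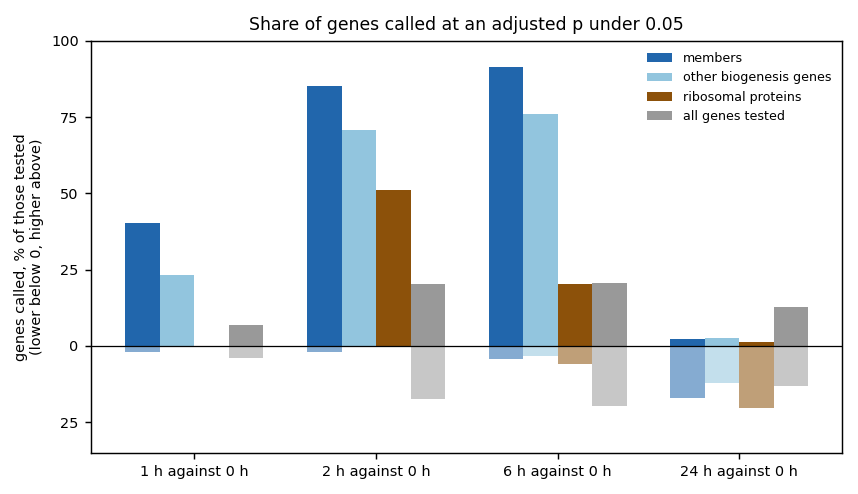
Bars give the percentage of tested genes called higher (above 0) and lower (below 0, paler) against 0 h in 4 sets: the 47 members, 117 other ribosome biogenesis genes, 84 cytosolic ribosomal protein genes and all 14420 genes tested. At 6 h 91.5% of members, 76.1% of the other biogenesis genes and 20.2% of the ribosomal protein genes were higher, against 20.6% of all genes.

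The test over all times together called 46 of 47 members, against 63.7% of all genes tested, and Nop10 was the exception (adjusted p = 0.227). The call of Polr1c in that test was the least firm: it was lost when any 1 of 11 libraries was left out. Against 0 h, 39 members were higher at both 2 h and 6 h, 19 of them also at 1 h. Over all genes tested such joint patterns of calls were not counted, here or for 24 h below. Tcof1, Bop1, Utp20 and Ltv1 were higher at 6 h and not called at 2 h; the 2 h value of Ltv1 (0.21, adjusted p = 0.0717) passed without 0 h replicate 3 (0.27, adjusted p = 0.035) or 2 h replicate 3 (0.28, adjusted p = 0.0199). Imp3 was lower at all 4 times, and Nop10 and Polr1c were called at none. The highest group mean fell at 6 h for 35 members, at 2 h for 10, at 0 h for Imp3 and at 24 h for Nop10. Over all genes tested the highest mean was at 6 h for 21.5%.

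Every class held members that were higher at 1, 2 and 6 h, with medians of different size. At 6 h the median log2 fold change was 0.81 for the snoRNP genes, 0.74 for large subunit assembly, 0.70 for the nucleolar proteins, 0.60 for small subunit assembly and 0.48 for RNA polymerase I transcription. At 2 h the medians in the same order were 0.61, 0.67, 0.36, 0.42 and 0.32, and without 2 h replicate 4 they were 0.54, 0.55, 0.36, 0.39 and 0.34. All 15 large subunit genes, 12 of 13 small subunit genes, 8 of 9 snoRNP genes, 4 of 4 nucleolar genes and 4 of 6 RNA polymerase I genes were higher at 6 h. From 6 h to 24 h 42 of the 47 members fell, against 18.2% of all genes tested, and 0 rose, against 17.6%, with a median log2 change of -0.73. These were 15 of 15 large subunit, 4 of 4 nucleolar, 8 of 9 snoRNP, 11 of 13 small subunit and 4 of 6 RNA polymerase I genes. No difference between classes was tested.

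**Figure D4:**
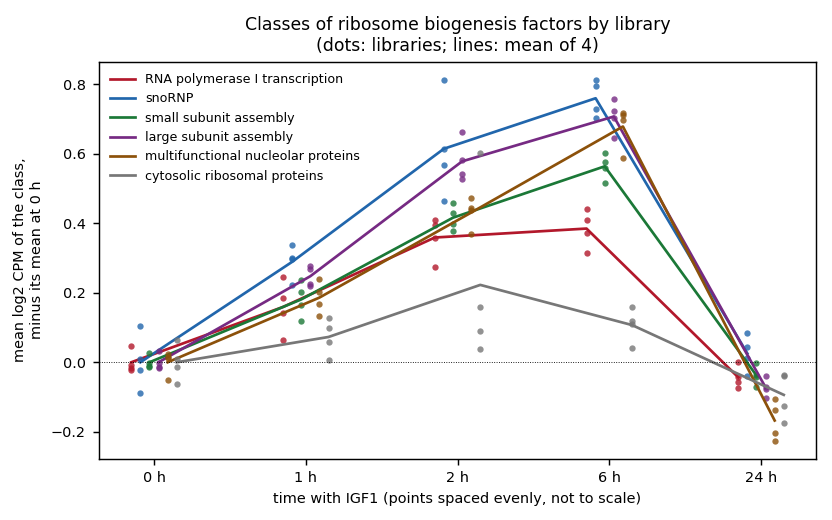
The y axis is the mean log2 CPM of each class in a library minus the class mean at 0 h, and the x axis is time with IGF1. Dots are libraries and lines join means of 4. Every class is above 0 at 1, 2 and 6 h and near or below 0 at 24 h; the single high dots at 2 h for the snoRNP and ribosomal protein genes are replicate 4.

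Transcription of ribosomal RNA itself begins with RNA polymerase I. Polr1b, the second-largest subunit of the enzyme (chr2:129100995-129126594), had 19.7, 15.97, 19.1 and 17.96 CPM in the 4 libraries at 0 h, 24.8, 23.5, 29.5 and 25.7 at 1 h, 32.9, 36.2, 32.05 and 31.1 at 2 h, 30.2, 32.1, 30.5 and 34.2 at 6 h and 17.5, 17.9, 18.9 and 19.5 at 24 h. All libraries at 1, 2 and 6 h were above all at 0 h, and those at 24 h lay among the 0 h values. Its log2 fold change was 0.51 ± 0.08 (SE, adjusted p = 8.31e-05) at 1 h and 0.82 ± 0.08 (SE, adjusted p = 1.44e-08) at 2 h, and 24 h did not pass (-0.09 ± 0.09 (SE, adjusted p = 0.501)). Polr1a, the catalytic subunit, moved later, from 51.1, 49.7, 49.8 and 51.6 CPM at 0 h to 78.5, 81.5, 65.5 and 49.4 at 2 h and 89.4, 81.7, 79.8 and 84.6 at 6 h. The 2 h libraries were uneven, with replicate 4 at the 0 h level, and the 6 h libraries were all higher than any at 0 h. It rose by a log2 of 0.40 ± 0.10 (SE, adjusted p = 0.00284) at 2 h, 0.53 ± 0.07 (SE, adjusted p = 1.87e-07) without 2 h replicate 4, and 0.68 ± 0.10 (SE, adjusted p = 5.14e-06) at 6 h. The 2 h value was 0.16 (adjusted p = 0.213) without 2 h replicates 1 and 2.

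Rrn3, the initiation factor that links RNA polymerase I to growth signals, had 68.3, 72.1, 63.1 and 64.6 CPM at 0 h, 79.9, 82.2, 79.2 and 85.9 at 1 h, 93.1, 92.2, 88.96 and 91.4 at 2 h and 97.4, 102, 100.03 and 102 at 6 h. Each group lay above the one before it with no shared range. At 24 h (83.1, 80.7, 78.4 and 75.3 CPM) all 4 libraries were still above the highest at 0 h in CPM by library total. With TMM scaling, as in the tests, the 24 h range overlaps that of 0 h. The log2 fold change was 0.29 ± 0.06 (SE, adjusted p = 0.000546) at 1 h and 0.53 ± 0.06 (SE, adjusted p = 1.25e-08) at 6 h. At 24 h it was 0.14 with an adjusted p of 0.076, which passed without 0 h replicate 2 (0.0375) or without 2 h replicate 4 (0.0375). It also passed with scaling by library totals (0.24, adjusted p = 0.00162). Ubtf, the factor UBF that holds ribosomal DNA open, moved in both directions. It had 146, 143, 149.8 and 141 CPM at 0 h, 177, 174, 189.97 and 168 at 2 h, 130.2, 133, 134 and 137 at 6 h and 140.5, 138, 131 and 136 at 24 h. All 2 h libraries were above the 0 h range, and all 6 h and 24 h libraries were below it. It rose by 0.25 ± 0.06 (SE, adjusted p = 0.000887) at 2 h and fell at 6 h, with a log2 change of -0.17 ± 0.06 (SE, adjusted p = 0.0172), a call that was lost with scaling by library totals (adjusted p = 0.0871) and without a count filter (0.121). Polr1c, a subunit shared with RNA polymerase III, passed at no time against 0 h; its largest value was 0.19 ± 0.09 (SE, adjusted p = 0.0996) at 2 h, where replicate 4 (49.2 CPM) was above the other 3 (34.4 to 39.2 CPM). Without 2 h replicate 1 that value passed (0.25, adjusted p = 0.0382). Tcof1, the nucleolar protein treacle, was higher at 6 h, 0.43 ± 0.09 (SE, adjusted p = 0.000374).

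**Figure D5:**
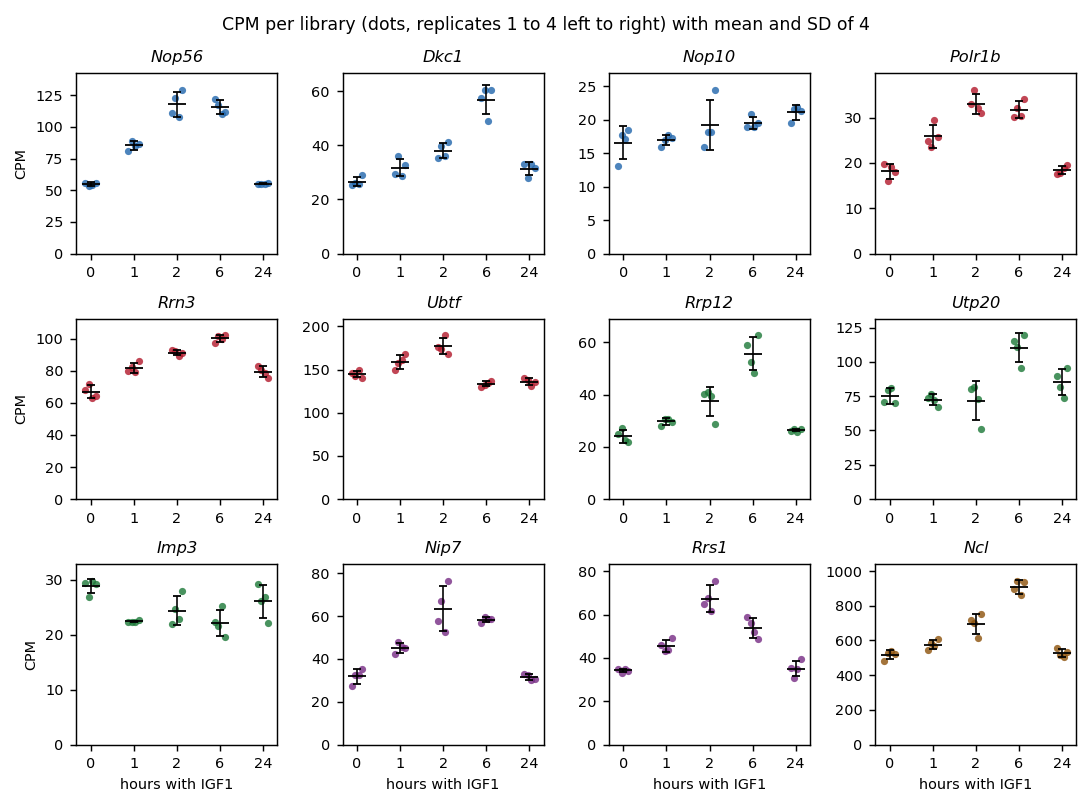
CPM of 12 members at 0, 1, 2, 6 and 24 h with IGF1, each panel from 0 on its own scale. Dots are the 4 libraries, the short bar is their mean and the whisker the SD. Nop56 and Rrs1 stand highest at 2 h, Dkc1, Rrp12, Utp20 and Ncl at 6 h. Imp3 is lower at 1 h and 6 h without overlap. For Nop10, which passed no test, the 6 h and 24 h dots lie above all dots of 0 h. That separation of Nop10 holds in this CPM by library total and not with TMM scaling.

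The snoRNP genes held the largest early rise. Nop56, a core protein of box C/D snoRNPs, which guide methylation of ribosomal RNA, had 56.1, 53.1, 54.5 and 55.6 CPM at 0 h, 80.9, 88.6, 85.2 and 86.9 at 1 h, 111, 123, 108 and 129 at 2 h, 122, 118, 110.3 and 112 at 6 h and 55.2, 54.8, 55.1 and 55.7 at 24 h. The groups at 1, 2 and 6 h lay above 0 h without overlap, 2 h and 6 h overlapped each other, and 24 h lay within the 0 h range. These ranges are in CPM by library total. With TMM scaling the mean was 56.4 CPM at 0 h and 52.6 CPM at 24 h. All 24 h libraries then lie below those of 0 h, though the 24 h change was not called. The log2 fold change was 0.64 ± 0.06 (SE, adjusted p = 6.76e-09), 1.06 ± 0.06 (SE, adjusted p = 1.25e-13) and 1.03 ± 0.06 (SE, adjusted p = 1.94e-13) at 1, 2 and 6 h. Nop58, its partner in the same particle, followed with 0.39, 0.61 and 0.72 and was lower at 24 h, -0.22 ± 0.07 (SE, adjusted p = 0.0187). Fbl (fibrillarin), the methyltransferase of these particles, was higher at 2 h, 0.56 ± 0.12 (SE, adjusted p = 0.000438), and at 6 h, 0.81 ± 0.12 (SE, adjusted p = 3.1e-06). Rrp9, which belongs to the snoRNP needed for the first cuts of the precursor, was higher at 2 and 6 h, with 0.83 at 6 h. Its call at 1 h was lost in 17 of 20 fits that left out 1 library and under RLE scaling, both other count filters and the replicate block.

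Box H/ACA snoRNPs guide pseudouridylation, and their 4 core proteins did not move alike. Dkc1, the pseudouridine synthase dyskerin (chrX:75095854-75109777), had 25.4, 25.98, 25.6 and 29.01 CPM at 0 h, 35.2, 39.8, 36.1 and 41.2 at 2 h, 57.6, 60.6, 49.1 and 60.4 at 6 h and 33.3, 27.8, 32.99 and 31.6 at 24 h. The 2 h libraries were all above 0 h, the 6 h libraries all above 2 h, and 24 h overlapped 0 h. It rose by 0.47 ± 0.09 (SE, adjusted p = 8.46e-05) at 2 h, 1.05 ± 0.09 (SE, adjusted p = 1.39e-10) at 6 h and again by 0.58 ± 0.08 (SE, adjusted p = 7.51e-06) between 2 h and 6 h. Gar1 and Nhp2 were higher at 2 h (0.64 and 0.53) and at 6 h (0.68 and 0.66). Nop10, the smallest of the 4 proteins, had 13.1, 17.7, 17.1 and 18.5 CPM at 0 h, 15.9, 18.2, 18.2 and 24.5 at 2 h, 18.9, 20.9, 18.99 and 19.5 at 6 h and 19.5, 21.6, 21.95 and 21.4 at 24 h. At 0 h 1 library was low and 2 h replicate 4 was high, while the remaining libraries at 0 h and 2 h shared a range. In CPM by library total, all libraries at 6 h and 24 h lay above those at 0 h. With TMM scaling, as in the tests, the 6 h and 24 h ranges overlap that of 0 h. No time passed: the largest log2 fold change was 0.24 ± 0.11 (SE, adjusted p = 0.116) at 24 h. It passed without 2 h replicate 4 (adjusted p = 0.0421) or with scaling by library totals (0.35, adjusted p = 0.0186). Nolc1, a chaperone of both kinds of snoRNP, had 74.9, 73.4, 69.7 and 75.7 CPM at 0 h and 143, 137, 135 and 134 at 6 h, ranges far apart, a log2 rise of 0.85 ± 0.06 (SE, adjusted p = 1.29e-11).

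Small subunit assembly included the member with the largest log2 fold change at any time. Rrp12, which takes part in the export and maturation of the small subunit (chr19:41862851-41896173), had 24.8, 27.4, 22.5 and 21.95 CPM at 0 h, 28.1, 30.5, 30.7 and 29.7 at 1 h, 40.4, 40.9, 39.5 and 28.9 at 2 h, 59.2, 52.7, 48.3 and 62.8 at 6 h and 26.1, 26.7, 25.9 and 26.8 at 24 h. The 6 h libraries were the highest of all, and 2 h replicate 4 stood below the other 3 at 2 h. It rose by 0.59 ± 0.10 (SE, adjusted p = 3.61e-05) at 2 h, 0.69 ± 0.08 (SE, adjusted p = 5.26e-08) without that library, and 1.16 ± 0.10 (SE, adjusted p = 3.64e-10) at 6 h. At 1 h its adjusted p was 0.0503, and it passed without 0 h replicate 2, 2 h replicate 2 or 2 h replicate 4 (0.00891 to 0.0434). Wdr43, a scaffold of the early small subunit processome, peaked earlier, with 70.9, 80.7, 75.7 and 81.02 CPM at 0 h, 99.7, 107, 111 and 111 at 1 h, 149.7, 153, 136 and 145 at 2 h and 126, 126, 117 and 117 at 6 h. These 4 ranges did not overlap. Its log2 fold change was 0.87 ± 0.06 (SE, adjusted p = 9.41e-12) at 2 h and 0.61 ± 0.06 (SE, adjusted p = 6.19e-09) at 6 h, and the step down between them passed (-0.26 ± 0.06 (SE, adjusted p = 0.0016)).

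Tsr1, a GTPase-like factor of late small subunit maturation, had 50.8, 50.2, 50.3 and 46.4 CPM at 0 h, 68.1, 68.04, 78.6 and 75.7 at 1 h and 97.01, 95.1, 88.1 and 93.9 at 6 h. All treated libraries to 6 h were above 0 h, with log2 rises of 0.56 ± 0.07 (SE, adjusted p = 7.92e-07) at 1 h and 0.87 ± 0.07 (SE, adjusted p = 5.03e-11) at 6 h. In the GENCODE M21 annotation 32.3% of its exonic bases lie under Srr on the opposite strand, and since the use of strand in counting is not given, reads of the pair cannot be told apart. The nuclease Nob1, which makes the last cut of the small subunit RNA, was higher at 2 h (0.75) and at 6 h (0.57). Its partner Pno1 was higher at 6 h (0.82).

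Imp3 and Imp4 bind the same guide RNA in the same complex, and they moved in opposite directions. Imp3, a gene with 1 exon (chr9:56937475-56938398), had 29.4, 26.9, 29.8 and 29.3 CPM at 0 h, 22.3, 22.3, 22.3 and 22.6 at 1 h, 21.9, 24.7, 22.9 and 27.9 at 2 h, 22.2, 21.6, 25.3 and 19.6 at 6 h and 29.3, 26.1, 26.9 and 22.1 at 24 h. All 1 h and 6 h libraries were below all 0 h libraries, and the 2 h and 24 h libraries overlapped them. Its log2 change was -0.36 ± 0.09 (SE, adjusted p = 0.00686) at 1 h, -0.29 ± 0.09 (SE, adjusted p = 0.0105) at 2 h and -0.43 ± 0.09 (SE, adjusted p = 0.000326) at 6 h. The 2 h call was lost without 2 h replicates 1 and 2 together (-0.22, adjusted p = 0.128). Imp4 had 37.97, 38.4, 41.2 and 39.7 CPM at 0 h and 48.3, 53.8, 51.5 and 53.3 at 6 h. Those ranges did not overlap, and the rise was 0.35 ± 0.06 (SE, adjusted p = 4.64e-05). The exonic lengths of Imp3, Nop10 and Nhp2, 924, 1109 and 1146 bases, are the shortest of the 47.

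Utp20, a very long scaffold protein of the processome, was a late riser. It had 70.4, 79.3, 80.9 and 69.97 CPM at 0 h, 73.7, 76.7, 72.4 and 67.3 at 1 h, 80.5, 81.6, 73.2 and 51.1 at 2 h and 115, 111, 95.6 and 119 at 6 h. The first 3 groups shared a range, except that 2 h replicate 4 lay below it, and all 6 h libraries were above it. The log2 fold change was -0.11 ± 0.11 (SE, adjusted p = 0.466) at 2 h, 0.02 ± 0.08 (SE, adjusted p = 0.889) without 2 h replicate 4, and 0.51 ± 0.11 (SE, adjusted p = 0.00103) at 6 h. The step from 2 h to 6 h was 0.62 ± 0.11 (SE, adjusted p = 0.000293), and 0.49 ± 0.08 (SE, adjusted p = 1.97e-05) without that library. Imp3, Utp20 and Rrs1 are described at length because of their values, which were known when they were chosen.

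All 15 large subunit genes were higher at 6 h, and 14 of them at 2 h. Nop16 had 22.7, 19.8, 23.6 and 23.1 CPM at 0 h, 34.8, 37.7, 28.3 and 46.2 at 2 h, 46.5, 45.9, 42.9 and 43.9 at 6 h and 24.2, 28.6, 25.7 and 26.2 at 24 h. The 2 h and 6 h libraries were all above 0 h, with 2 h replicate 3 the lowest and 2 h replicate 4 among the highest. This large subunit assembly factor rose by 0.67 ± 0.10 (SE, adjusted p = 2.84e-06) at 2 h, 0.55 ± 0.08 (SE, adjusted p = 2.49e-06) without 2 h replicate 4, and 0.96 ± 0.09 (SE, adjusted p = 5.53e-09) at 6 h. Noc2l, part of a complex that moves early large subunit particles out of the nucleolus, had 58.6, 60.04, 58.2 and 57.8 CPM at 0 h, 71.7, 74.3, 80.8 and 73.4 at 1 h, 96.4, 99.9, 92.7 and 97.1 at 2 h and 121, 122, 113 and 112 at 6 h. The groups were tight and did not overlap, and the rise reached 0.95 ± 0.06 (SE, adjusted p = 2.51e-13) at 6 h. Nip7, a factor of large subunit RNA processing, had 27.2, 32.6, 32.5 and 35.3 CPM at 0 h, 42.4, 47.9, 45.8 and 44.9 at 1 h, 57.9, 67.2, 52.5 and 76.7 at 2 h and 56.9, 59.6, 58.5 and 58.6 at 6 h. The 2 h libraries spread on both sides of the 6 h libraries, and all were above 1 h and 0 h. The log2 fold change was 0.95 ± 0.09 (SE, adjusted p = 1.73e-09) at 2 h and 0.82 ± 0.09 (SE, adjusted p = 1.55e-08) at 6 h.

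Rrs1, which brings the smallest ribosomal RNA into the large subunit, had 34.6, 33.2, 34.9 and 34.00 CPM at 0 h, 45.8, 43.1, 43.4 and 49.1 at 1 h, 64.6, 67.4, 61.4 and 75.7 at 2 h and 58.9, 56.1, 52.1 and 48.5 at 6 h. It was highest at 2 h, where no library overlapped another time. The rise at 2 h was 0.93 ± 0.08 (SE, adjusted p = 2.21e-10), and the step down to 6 h was -0.32 ± 0.07 (SE, adjusted p = 0.00193), or -0.26 ± 0.07 (SE, adjusted p = 0.00526) without 2 h replicate 4. Nop2, a methyltransferase of large subunit RNA, was higher at 1, 2 and 6 h with 0.45, 0.88 and 0.93. The 3 proteins of the PeBoW complex, which is needed to cut the large subunit precursor, differed in size of change. Wdr12 rose by 0.89 ± 0.09 (SE, adjusted p = 1.21e-08) at 6 h and, alone among the members, was higher at 24 h (0.29 ± 0.09 (SE, adjusted p = 0.0223)). Pes1 was higher at 6 h by 0.42. Bop1 had 248, 218, 198 and 206 CPM at 0 h and 318, 277, 283 and 312 at 6 h, ranges that do not meet, and rose by 0.40 ± 0.08 (SE, adjusted p = 0.000259). Its 2 h value (0.18 ± 0.08 (SE, adjusted p = 0.0913)) passed without 0 h replicate 1 or 2 h replicate 4 (0.25, adjusted p = 0.0207, and 0.23, adjusted p = 0.0279). Scx, the tendon transcription factor, lies on the other strand inside an intron of Bop1 (chr15:76452989-76477277) and had a mean of 1687 CPM at 0 h, 4005 CPM after 1 h, 4364 CPM at 2 h, 2205 CPM at 6 h and finally 1653 CPM at 24 h. The part of Scx reads in the Bop1 count was not tested. Gnl3 (nucleostemin, a nucleolar GTPase) and Ddx18 (an RNA helicase) were higher at 2 h, both by 0.40, and at 6 h by 0.57 and 0.50.

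The 4 multifunctional proteins all had their highest mean at 6 h. Ncl (nucleolin), which binds nascent ribosomal RNA, had 482, 529, 538 and 521 CPM at 0 h, 543, 586, 569 and 607 at 1 h, 719.8, 701, 614 and 749.6 at 2 h, 895, 945, 861 and 934 at 6 h and 559, 515, 502 and 534 at 24 h. Each group to 6 h lay above the one before it, and 24 h lay over 0 h. Its log2 fold change was 0.38 ± 0.06 (SE, adjusted p = 9e-06) at 2 h and 0.76 ± 0.06 (SE, adjusted p = 4.78e-11) at 6 h; the 1 h value (0.16, adjusted p = 0.0833) passed without 2 h replicate 4 (0.15, adjusted p = 0.0393). Npm1 (nucleophosmin), the chaperone that shapes the granular part of the nucleolus, had 428, 485, 495 and 491 CPM at 0 h, 577, 562, 494 and 733 at 2 h and 694, 743, 699 and 732 at 6 h. At 2 h replicate 4 stood high and replicate 3 lay within the 0 h range, whereas at 6 h all 4 were above 0 h. It rose by 0.27 ± 0.08 (SE, adjusted p = 0.00758) at 2 h, 0.15 ± 0.06 (SE, adjusted p = 0.0333) without 2 h replicate 4, and 0.55 ± 0.08 (SE, adjusted p = 2.38e-06) at 6 h. The 2 h call was lost when the 0 h and 2 h libraries were fitted alone (adjusted p = 0.0785). Ddx21, an RNA helicase that serves both RNA polymerase I transcription and processing, was early: it had 159, 162, 157 and 161 CPM at 0 h, 207, 219, 205 and 221 at 1 h, 297, 309.7, 273 and 236 at 2 h and 283, 294, 268 and 275 at 6 h. The 1 h libraries were already clear of 0 h, and the rises were 0.42 ± 0.06 (SE, adjusted p = 3.63e-05), 0.76 ± 0.06 (SE, adjusted p = 4.46e-10) and 0.76 ± 0.06 (SE, adjusted p = 3.18e-10). Mybbp1a, a nucleolar partner of several transcription factors, had 205, 196, 200.1 and 200.2 CPM at 0 h, 265, 276, 264 and 239 at 2 h, 334, 325, 299 and 336 at 6 h and 187, 187, 172 and 188 at 24 h. Its 24 h libraries were all below 0 h after a peak at 6 h, with 0.64 ± 0.06 (SE, adjusted p = 9.35e-10) at 6 h and -0.24 ± 0.06 (SE, adjusted p = 0.00281) at 24 h.

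Most members came back by 24 h, and whether a few went below their start depended on the scaling. Of the 39 that were higher at 2 h and 6 h, 33 were not called at 24 h, 5 were lower (Nop58, Wdr43, Gnl3, Ddx18 and Mybbp1a) and Wdr12 was higher. Bop1, Ubtf and Imp3 were also lower, so that 8 members (17.0%) were lower at 24 h, near the 13.2% of all genes tested. With scaling by library totals in place of TMM, which moved the median over all genes tested from 0.00 to 0.11, none of the 8 was lower and 6 members were higher (Wdr12, Dkc1, Nop10, Pno1, Rrn3 and Tsr1), while 3267 of all genes tested were higher and 1144 lower. Relative to the median gene the members thus lay within 0.29 on the log2 scale of their start under TMM. Leaving out single libraries left Mybbp1a and Ubtf lower. The call of Bop1 was lost without 0 h replicate 1 (adjusted p = 0.0717). That of Wdr43 was lost without 0 h replicate 2 or 4 or 24 h replicate 2 or 4 (0.0767 to 0.0949), and that of Ddx18 without 0 h replicate 2 or 4 or 24 h replicate 4 (0.0551 to 0.108). The calls of Gnl3 were lost without 0 h replicate 2 or 3 or 24 h replicate 2 (0.0515 to 0.0917) and of Nop58 without 0 h replicate 3 or 4 or 24 h replicate 2 or 3 (0.059 to 0.0778). Imp3 lost its call without 0 h replicate 1, 3 or 4 or 24 h replicate 2, 3 or 4 (0.0585 to 0.176). Without 0 h replicate 4, 4 members were lower, and without 0 h replicate 1 or 3 none was higher.

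Between 1 h and 2 h 33 members rose and none fell, against 7.5% and 8.84% of all genes tested. A fit of only those 8 libraries called 13, and leaving out 1 library gave 26 to 34, the fewest without 1 h replicate 1. Of the 33 calls 24 were kept whichever 1 library was left out. Those of Fbl, Gnl3, Nhp2 and Nop58 were lost without 2 h replicate 4 and also without 1 h replicate 1. Fbl, Nhp2 and Nop58 lost theirs without 1 h replicate 3 as well, and Nhp2 without 1 h replicate 2. The call of Noc3l was lost without 2 h replicate 1, 2 or 3 or 1 h replicate 4. Those of Imp4, Ddx18, Noc4l and Wdr12 were lost without some 1 h or 2 h libraries. Between 2 h and 6 h 15 rose and 3 fell, against 13.6% and 13.7%. A fit of only those 8 libraries called 9 that rose, and leaving out 1 library gave 11 to 19. The largest further rises were those of Utp20, Dkc1 (0.58 ± 0.08 (SE, adjusted p = 7.51e-06)), Rrp12 (0.57 ± 0.10 (SE, adjusted p = 5.87e-05)), Wdr12 (0.46 ± 0.09 (SE, adjusted p = 0.000365)), Pno1 (0.40), Ltv1 (0.39) and Ncl (0.38). The 3 that fell were Ubtf (-0.41 ± 0.06 (SE, adjusted p = 2.32e-06)), Rrs1 and Wdr43. Polr1a, Bop1, Nop16 and Tcof1 were called higher in this step, and their calls were lost without 1 or more single libraries: Polr1a without 2 h replicate 3 or 4 or 6 h replicate 1 or 4, Bop1 without 2 h replicate 1, 2 or 4 or 6 h replicate 1 or 4, Nop16 without 2 h replicate 1 or 3 or 6 h replicate 1 or 2, and Tcof1 without 2 h replicate 1 or 6 h replicate 1 or 4. Without 2 h replicate 4, 19 members rose in this step, with Bysl, Ebna1bp2, Fbl, Gnl3, Nhp2 and Nop58 added.

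Levels of different genes are compared per length, as CPM per kb of exonic sequence. At 0 h Npm1 had the highest, 178 ± 11.8 CPM per kb (SD, n = 4), followed by Bop1 (73.6 ± 7.32), Ncl (50.8 ± 2.43), Mybbp1a (34.5 ± 0.662), Imp3 (31.2 ± 1.45), Ddx21 (30.9 ± 0.453) and Nop2 (24.4 ± 0.962). The values of Imp3 and Ddx21 lay within their spread of each other. Wdr12 had the lowest, 1.90 ± 0.212. The lengths cover all annotated exons of a gene, rare isoforms included, which lowers the values of genes such as Wdr12 (11955 bases) and Ncl (10188 bases).

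The rise extended to ribosome biogenesis genes outside the 47. Of 120 further genes listed by function, 117 were tested, and 27 (23.1%) were higher at 1 h, 83 (70.9%) at 2 h and 89 (76.1%) at 6 h, against 6.75%, 20.2% and 20.6% of all genes tested. None was lower at 1 h or 2 h and 4 were lower at 6 h. At 24 h 3 (2.56%) were higher, against 12.7%, and 14 were lower, a share near the 13.2% of all genes. From 6 h to 24 h 92 of them (78.6%) fell and 2 rose, against 18.2% and 17.6%. By function, 36 of 42 small subunit, 33 of 42 large subunit, 9 of 12 RNA exosome, 6 of 11 snoRNP and 5 of 10 RNA polymerase I genes were higher at 6 h. Ppan, a large subunit assembly factor, had the largest difference, 1.17 ± 0.08 (SE, adjusted p = 1.05e-11) at 2 h, and Mak16 of the same route had 0.96 ± 0.08 (SE, adjusted p = 1.22e-10). In the small subunit route Mphosph10, the partner of Imp3 and Imp4, was higher by 0.97 ± 0.10 (SE, adjusted p = 1.31e-08) and Utp4 by 0.92 ± 0.07 (SE, adjusted p = 4.13e-11) at 2 h. The exosome cofactor Mphosph6 was higher by 0.98 ± 0.10 (SE, adjusted p = 1.05e-08) at 2 h and the exosome subunit Exosc2 by 0.63 ± 0.10 (SE, adjusted p = 1.32e-05) at 6 h. The RNA polymerase I genes Cd3eap and Taf1d were higher at 2 h, by 0.85 ± 0.09 (SE, adjusted p = 1.7e-08) and 0.83 ± 0.09 (SE, adjusted p = 2.3e-08). Among snoRNP assembly genes the ATPase Ruvbl2 was higher at 6 h, 0.82 ± 0.07 (SE, adjusted p = 9.83e-10). Gltscr2 (also named Nop53) was counted in the same list of 11, though it is not taken here as a snoRNP assembly gene. It was lower at 6 h, -0.62 ± 0.08 (SE, adjusted p = 3.6e-07).

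Cytosolic ribosomal protein genes, the cargo of this pathway, had a smaller median change, which at 2 h turned on 1 library. Of 84 tested, edgeR called 0 at 1 h (2 at an unadjusted p below 0.05; DESeq2 also called 0). At 2 h 43 (51.2%) were higher and 0 lower, against 20.2% and 17.5% of all genes tested, with a median log2 fold change of 0.21. Without 2 h replicate 4, 28 were higher and 7 lower at 2 h, with a median of 0.07. At 6 h 17 (20.2%) were higher, near the 20.6% of all genes, and 5 (5.95%) lower, against 19.6%; without 2 h replicate 4, which enters the shared spread, these were 30 and 11. At 24 h 1 was higher and 17 (20.2%) were lower, against 12.7% and 13.2%, and without that library 2 and 30. In the step from 2 h to 6 h 5 (5.95%) fell and 0 rose, against 13.7% and 13.6%, and without that library 2 fell and 4 rose. The highest group mean was at 2 h for 70 of the 84, while it was at 6 h for 35 of the 47 biogenesis factors, and the high level of these short genes in 2 h replicate 4 given above enters that count. The mean level of Myc (± SD, n = 4) was 42.7 ± 2.50 CPM at 0 h, 43.1 ± 2.42 CPM at 1 h, 59.4 ± 5.07 CPM at 2 h, 54.2 ± 2.51 CPM at 6 h and 36.7 ± 2.91 CPM at 24 h. It was not called at 1 h (0.02, adjusted p = 0.933). Myc was higher at 2 h by 0.43 (adjusted p = 2.21e-05) and at 6 h by 0.29 (adjusted p = 0.00132). At 24 h it was called lower (-0.33). The part of MYC in the changes of the members was not tested.

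The authors' deposited table of edgeR results lists all 47 members. At the same threshold it calls the same members in the same direction at 2, 6 and 24 h against 0 h, and at 1 h it differs for Rrp9 and Bysl, which the authors' deposited table does not call. In the steps it also calls Rrp12 higher from 1 h to 2 h. From 2 h to 6 h it calls 4 members lower, with Nob1 added. From 6 h to 24 h its calls are the same. In the present fit the call of Rrp9 at 1 h was lost in 17 and that of Bysl in 16 of the 20 fits that left out 1 library, and both were lost under RLE scaling and under both other count filters.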

How the data were processed

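RNA was sequenced from 20 mouse tenocyte libraries, 4 at each of 0, 1, 2, 6 and 24 h of IGF1, grouped by their labels. Raw read counts of 29986 genes were deposited by the authors, beside their own edgeR output, whose deposited columns are log2 fold changes, log2 CPM, p-values and adjusted p-values, per the file headers. FastQC, STAR, edgeR and the mm10 build are named per the submitters' processing notes. How reads were counted, on which annotation release and with which strand setting is not given in the sources used here, so genes that overlap on opposite strands cannot be separated.

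The deposited counts were analysed with edgeR 4.0.16 in R 4.3.3 (limma 3.58.1): filterByExpr over the 5 groups kept 14420 genes, which hold 99.9% of the counts, TMM factors scaled the libraries, and 1 robust quasi-likelihood fit of all 20 libraries without covariates gave each comparison. Calls used Benjamini-Hochberg adjusted p-values below 0.05 over all genes tested, two-sided. The SE is the log2 fold change divided by the square root of F. The fit was also run on simulated counts with known changes in a small share of genes at 2 h or 24 h. Its outcome is not reported here, and more genes were called in these data than were changed there. CPM uses the total count of a library, 13734425 to 22687173, and class levels are means of log2 CPM with a prior count of 2. Alternatives were RLE scaling, other count filters, the replicate number as a block, DESeq2 1.42.0, fits of 8 libraries, TMM-scaled CPM and leaving out each library. Scaling by library totals, leaving out 2 h replicates 1 and 2 together, and the longer promoter window were added after the data were seen. Positions are from GENCODE M21 (GRCm38, the same assembly as mm10). Protein sequences were not used here.

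The members, classes and other lists were chosen with earlier results of these data known. Values per library, at some or all times, are given for the 3 members of each class with the largest log2 fold change against 0 h. They are also given for all of a class of 4, the member with the smallest (for Polr1c at 2 h only), and Ubtf, called in both directions. Nop58, Gnl3 and Ddx18, also called in both directions, are described by their fold changes. Imp3, Utp20 and Rrs1 were added after their values were seen. Of each list of other pathway genes the 2 with the largest change are named.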

Additional observations from a re-analysis of the deposited data

Results flagged for a closer look

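Among 165 groups of 4 libraries (27 members, the means of 5 classes and of all members, at 5 times), 7 held 1 library far from the other 3, by a gap above the critical value of Dixon's test at 95%; chance gives such a gap in about 1 in 20 groups. Rrp12 was at 28.9 CPM in 2 h replicate 4 and at 39.5 to 40.9 CPM in the other 3. Spearman's rho of the departures of 47 members against exonic length was -0.60 in that library and 0.65 in 2 h replicate 1. Npm1 was at 428.0 CPM in 0 h replicate 1, against 485 to 495 CPM. Mybbp1a was at 172 CPM in 24 h replicate 3, against 187 to 188 CPM. In 0 h replicate 4 Tsr1 was low, at 46.4 CPM against 50.2 to 50.9 CPM, and Dkc1 was high, at 29.0 CPM against 25.4 to 26.0 CPM. Nop58 was at 206 CPM in 6 h replicate 2, against 190 to 191 CPM. The mean log2 CPM of the 4 multifunctional nucleolar proteins was 8.85 in 6 h replicate 3, against 8.96 to 8.98. The cause of these gaps was not tested.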

How the results depend on the processing

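Counts of members called at 1, 2 and 6 h and in the fall from 6 h to 24 h kept their direction under every alternative. Signs of single genes were checked for 27 members against 0 h only, and there no called value changed sign. Class medians at 24 h, which were near 0, did change sign for some classes, as given next. With library totals in place of TMM, a choice made after seeing the data, 24 h gave 6 members higher and 0 lower and 3267 of all genes higher and 1144 lower; 6 h gave 1 member lower, and 24 h against 6 h gave 1 higher. The class medians then became, for RNA polymerase I, 0.53 at 6 h and 0.0705 at 24 h; for snoRNP genes, 0.202 at 24 h; for the small subunit, 0.47 at 2 h, 0.65 at 6 h and 0.0891 at 24 h; for the large subunit, 0.72, 0.79 and 0.0294; for the nucleolar proteins, 0.41 at 2 h and -0.0682 at 24 h. With TMM-scaled CPM the members' share of counts was 0.358% at 0 h, 0.412% at 1 h and 0.333% at 24 h. Without a count filter 1 member was lower at 6 h, and without 2 h replicates 1 and 2 together 0 were lower at 2 h. Fits of only the 8 libraries compared gave 13 members higher from 1 h to 2 h, 9 from 2 h to 6 h, and 1680 of all genes lower at 2 h.

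Leaving out each library in turn gave 15 to 24 members higher at 1 h, 40 to 41 at 2 h, 43 at 6 h, and 0 to 3 higher and 4 to 10 lower at 24 h. It gave 445 to 909 of all genes lower at 1 h, the highest without 2 h replicate 4, and 0 to 1 members higher from 6 h to 24 h. The medians ranged at 24 h from -0.0656 to -0.00482 for RNA polymerase I and from -0.0657 to 0.0283 for the small subunit, at 2 h from 0.386 to 0.484 for the small subunit and from 0.546 to 0.679 for the large subunit, and at 1 h from 0.171 to 0.245 for the large subunit.

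Deviations of same-numbered libraries were little correlated: r ran from -0.17 to 0.126 over 40 pairs, 1 of them above 0.1. Of 20 libraries, 3 correlated best with their own number. These correlations cannot show whether same-numbered libraries shared a mouse, culture or day, which the labels do not give. With the replicate number as a block, 19 members were higher and 1 lower at 1 h, as without it, with Dkc1 gained and Rrp9 lost.

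The SE of a member's log2 fold change against 0 h at 6 h ran from 0.0552 (Ubtf) to 0.117 (Fbl). Differences below these sizes lay within the error of such genes, and a difference above 1 SE is not thereby beyond it. Calls rest on the adjusted p.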
